A study of Mus musculus with 21 samples.

Results

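The 10 receptor genes followed here belong to natural killer (NK) cells and some cytotoxic T cells and were measured in mice fed a control chow diet or a methionine-restricted (MR) diet: Klrd1, Klrc1, Klrk1, Klra7, Klra8, Klra9, Klre1, Klrb1c, Klrg1 and Ncr1. They were taken by gene symbol and not by a threshold, but the list was chosen with earlier results of these data known. All 10 are listed among 13509 genes in splenic CD8+ T cells and among 15507 genes in MC38 tumors, and 8 of the 10 among 15184 genes in BPD6 tumors, where Klra8 and Klra9 have no row. The groups were CD8+ T cells from spleen (3 control and 3 MR libraries), tumors of MC38, a mouse colon carcinoma line (4 and 4), and tumors of BPD6, a mouse melanoma line (4 and 3). The labels call the tumor samples tumor cells and give no strain, age, sex or length of diet, and they do not tell if each replicate is its own animal. The p-values therefore speak of the spread among these libraries, some of which may be technical. Libraries held 15733774 to 24129562 counts, and every level below is in CPM, counts per 1000000 counts of the library.

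NK cells carry no clonal antigen receptor and read their targets through paired inhibitory and activating receptors, many of them C-type lectins of the Klr families. Inhibitory members carry tyrosine motifs that recruit phosphatases when they bind class I MHC molecules, and activating members signal through adaptors such as DAP12 and DAP10, encoded by Tyrobp and Hcst. Activated and memory CD8+ T cells take up several of the same receptors, which tune their response to the antigen receptor, and in tumors these receptors are read as signs of infiltrating lymphocytes.

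On GRCm38, 9 of the 10 genes lie on chromosome 6, and Ncr1 lies on chromosome 7 from 4337724 to 4345164. Klre1 (129577905 to 129585827), Klrd1 (129591782 to 129598775), Klrk1 (129610323 to 129623864) and Klrc1 (129666015 to 129678973) are neighbors, and Klra8, Klra9 and Klra7 follow between 130115226 and 130233322. Klrg1 (122270596 to 122282882) and Klrb1c (128778485 to 128789215) lie at lower coordinates. The Klra genes encode Ly49 receptors and are related in sequence. The first 150 coding bases of the 3 members are shown because counts of these genes rest on telling such stretches apart, and capitals mark the 44 positions that are not the same in all 3 genes (GENCODE transcripts, GRCm38, coding strand):
Klra7: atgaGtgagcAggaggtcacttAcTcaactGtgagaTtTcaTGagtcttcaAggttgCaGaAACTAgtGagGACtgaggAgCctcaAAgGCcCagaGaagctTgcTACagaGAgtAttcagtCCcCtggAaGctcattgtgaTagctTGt
Klra8: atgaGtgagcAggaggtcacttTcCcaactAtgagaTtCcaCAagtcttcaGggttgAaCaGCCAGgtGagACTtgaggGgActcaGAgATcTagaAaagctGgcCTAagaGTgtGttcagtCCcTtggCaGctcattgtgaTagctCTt
Klra9: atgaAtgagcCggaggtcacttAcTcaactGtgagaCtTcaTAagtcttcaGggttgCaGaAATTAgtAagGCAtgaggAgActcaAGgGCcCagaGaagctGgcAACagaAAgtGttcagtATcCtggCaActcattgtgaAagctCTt

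Within these bases Klra7 and Klra9 differed at 22 positions, Klra7 and Klra8 at 33 and Klra8 and Klra9 at 35. Over the whole transcript, the share of 50-base windows found without a mismatch in another gene was 33.1% for Klra8 (shared with Klra9, Klra10, Klra3 and Klra pseudogenes), 32.4% for Klra9 and 15.1% for Klra7. At 100 bases it was 14.4%, 4.41% and 2.36%. Klrb1c (29.7% at 50 bases, mainly with the predicted gene Gm44511) and Klrc1 (26.8%, with Klrc2 and Klrc3) shared windows as well. No such window was found in Klre1, Klrd1, Klrg1, Klrk1 or Ncr1. How the authors assigned reads that match several genes is not given in the sources used here, so levels of Klra7, Klra8, Klra9, Klrb1c and Klrc1 are uncertain to that extent.

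In CD8+ T cells, Klre1 fell with MR and was the 1 of 10 members past the test, while 9 of the 10 had a fold change below zero and Klrd1 had one slightly above. The test was edgeR's quasi-likelihood test over all 12348 genes that passed the filter, Benjamini-Hochberg adjusted, with a call at an adjusted p under 0.05. It called 1.41% of all genes, 0.818% of them as lower with MR. The median log2 fold change of the 10 genes, MR over control, was -0.64, beside 0.006 over all genes, and 49.6% of all genes lay below zero. Scaled by library totals only, 8 of the 10 were below zero. Without control replicate 3, 7 of the 10 were below zero and the median was -0.48. No member passed the test in either tumor model.

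**Figure D1:**
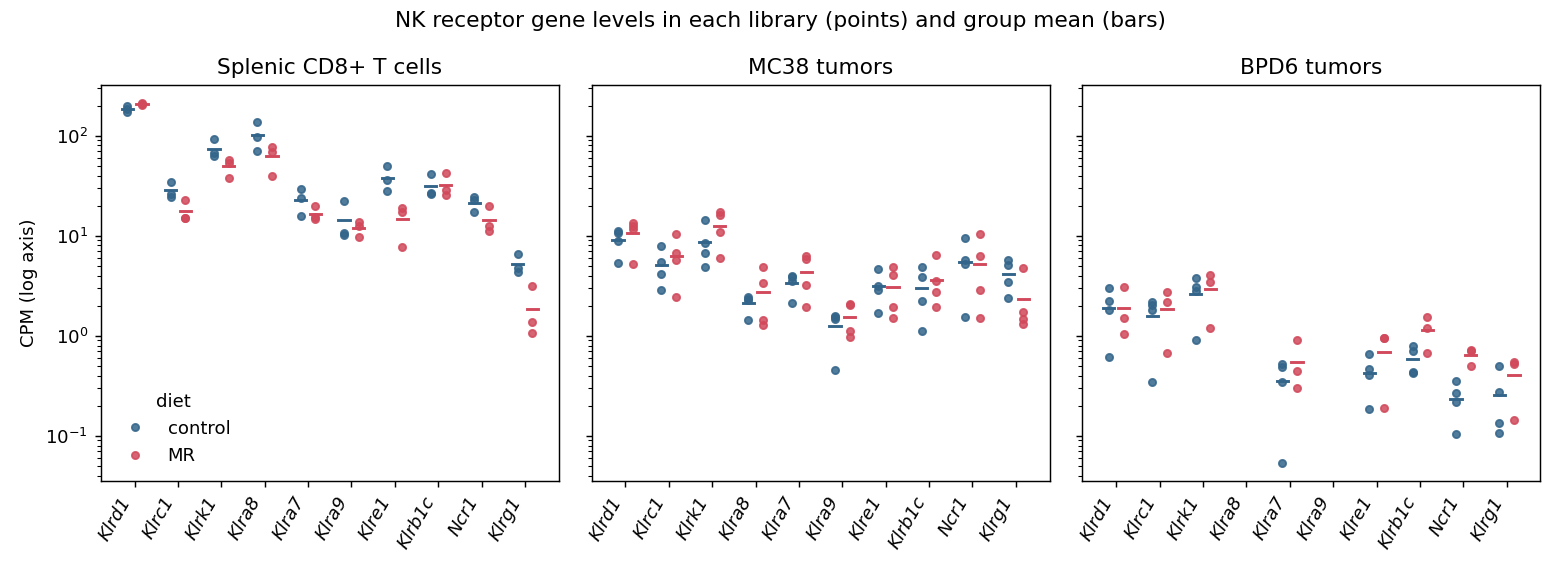
Level of each gene (CPM, log axis) in every library of the 3 materials, control in blue and MR in red, with bars at group means. Klrd1 is the highest gene in CD8+ T cells, at 171 to 213 CPM, Klre1, Klrc1, Klrk1 and Klrg1 have MR points below all control points there, and control and MR points interleave in MC38 tumors.

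Klrd1 encodes CD94, the shared partner of the NKG2 receptors, and Klrc1 encodes NKG2A, the inhibitory chain that pairs with CD94 and binds the class I molecule Qa-1, product of H2-T23. Klrd1 was measured at 184, 198 and 171 CPM in the control CD8+ T cells and at 213, 204 and 209 CPM in the MR cells. All 3 MR values lay above the control values, as they did for 14.4% of all genes, but the groups overlapped once libraries were scaled by TMM factors, which correct for differences in composition, and the log2 fold change was 0.11 ± 0.14 (SE, adjusted p = 0.720 by edgeR). Klrc1 was measured at 24.4, 26.3 and 34.8 CPM in control cells and at 15.04, 22.8 and 15.1 CPM in MR cells. Its groups did not overlap, but the log2 fold change of -0.76 ± 0.23 did not pass the test (adjusted p = 0.102 by edgeR). The ratio of Klrc1 to Klrd1 counts was 0.133, 0.133 and 0.203 in control and 0.071, 0.112 and 0.072 in MR cells, a comparison chosen after the data were seen and not tested. H2-T23 stood at 426 ± 36.9 CPM in control cells and 390 ± 8.27 CPM in MR cells (SD, n = 3 each), and its log2 fold change was -0.20 ± 0.15 (adjusted p = 0.519 by edgeR).

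Klrk1 encodes NKG2D, an activating receptor for stress-induced ligands that signals through DAP10. It was measured at 67.7, 63.4 and 91.9 CPM in control cells and 37.9, 57.6 and 53.6 CPM in MR CD8+ T cells. The groups did not overlap, and the log2 fold change was -0.65 ± 0.20 (adjusted p = 0.107 by edgeR). Hcst, the DAP10 gene, stood at 166 ± 18.3 CPM in control cells and 179 ± 32.7 CPM in MR cells (SD, n = 3 each), and its log2 fold change was 0.04 ± 0.18 (adjusted p = 0.912 by edgeR).

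Klre1 encodes a receptor of mouse NK cells that pairs with the Klri1 or Klri2 product, to inhibit or to activate. It was measured at 36.0, 27.9 and 50.003 CPM in control cells and at 7.73, 19.1 and 17.2 CPM in MR CD8+ T cells. Every MR value was below every control value, with MR replicate 1 the lowest. Klre1 fell by 1.44 ± 0.30 on the log2 scale (SE; adjusted p = 0.0294 by edgeR). It no longer passed without control replicate 1 (adjusted p = 0.0568), without MR replicate 1 (0.184, log2 fold change -1.12) and without MR replicate 3 (0.0696). In the authors' deposited table the fold change of Klre1 is -1.44 with an adjusted p of 0.000675. The partner gene Klri2 stood at 9.07 ± 5.65 CPM in control cells and 8.38 ± 5.70 CPM in MR cells (SD, n = 3 each), with a log2 fold change of -0.17 ± 0.46 (adjusted p = 0.871 by edgeR), and Klri1 has no row in that table.

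Klra8 encodes Ly49H, an activating receptor that signals through DAP12 and is known for recognizing a cytomegalovirus protein, and Klra7 and Klra9 encode Ly49G and Ly49I, inhibitory receptors for class I MHC. Klra8 was measured at 96.4, 71.2 and 137 CPM in control cells and at 39.3, 69.6 and 77.9 CPM in MR CD8+ T cells, with groups that overlapped through MR replicate 3. Its log2 fold change was -0.78 ± 0.26 (adjusted p = 0.132 by edgeR). Klra7 was measured at 29.6, 15.7 and 23.7 CPM in control cells and at 15.4, 20.1 and 14.6 CPM in MR cells. The groups overlapped, and the log2 fold change was -0.53 ± 0.24 (adjusted p = 0.266 by edgeR). Klra9 was measured at 10.7, 10.2 and 22.4 CPM in control cells and at 9.66, 12.6 and 13.6 CPM in MR cells. Control replicate 3 was high and the other control libraries were within the MR range, so the log2 fold change of -0.35 ± 0.30 became 0.14 without that library (adjusted p = 0.581 with it by edgeR). Since reads can be shared, the 3 genes were also summed, after the data were seen: they came to 139 ± 43.1 CPM without and 90.9 ± 23.04 CPM with MR (SD, n = 3 each), with ranges that overlapped.

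Klrb1c encodes NK1.1, an activating receptor used to identify NK cells in some mouse strains. It was measured at 26.8, 26.4 and 41.8 CPM in control cells and at 28.5, 42.3 and 25.4 CPM in MR CD8+ T cells. The groups interleaved, and the log2 fold change was -0.05 ± 0.24 (adjusted p = 0.927 by edgeR), or 0.02 when scaled by library totals only. Ncr1 encodes NKp46, an activating receptor of the immunoglobulin family that marks NK cells and signals through Fcer1g and Cd247. It was measured at 22.9, 17.2 and 24.2 CPM in control cells and at 11.2, 19.7 and 12.5 CPM in MR cells. MR replicate 2 lay within the control range and the others below it, with a log2 fold change of -0.63 ± 0.25 (adjusted p = 0.196 by edgeR).

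Klrg1 encodes an inhibitory receptor for cadherins and marks terminally differentiated effector CD8+ T cells. It had the lowest level of the 10 genes in CD8+ T cells, at 4.75, 4.33 and 6.61 CPM in control cells and 1.38, 3.11 and 1.07 CPM in MR cells, which are 17 to 104 counts a library. The groups did not overlap, and the log2 fold change of -1.56 ± 0.46 was the largest of the 10 in size but missed the threshold (adjusted p = 0.100 by edgeR). DESeq2 called Klrg1 (adjusted p = 0.0307) beside Klre1, from 4.90% of the genes it gave an adjusted p. In the authors' deposited table Klrg1 is under 0.05 as well (adjusted p of 0.0328), and Klre1 is the only other member that is. An unadjusted p under 0.05 was found in 7 of the 10 genes, against 17.3% of all genes. In all, 4 of the 10 genes (Klrc1, Klre1, Klrg1 and Klrk1) had all MR values below all control values, where 7.86% of all genes did. Since the list was chosen with earlier results of these data known, these shares are a description only. Without MR replicate 2, edgeR called 5 members (Klrc1, Klre1, Klrg1, Klrk1 and Ncr1) and 290 genes in all, against 174 with every library.

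**Figure D2:**
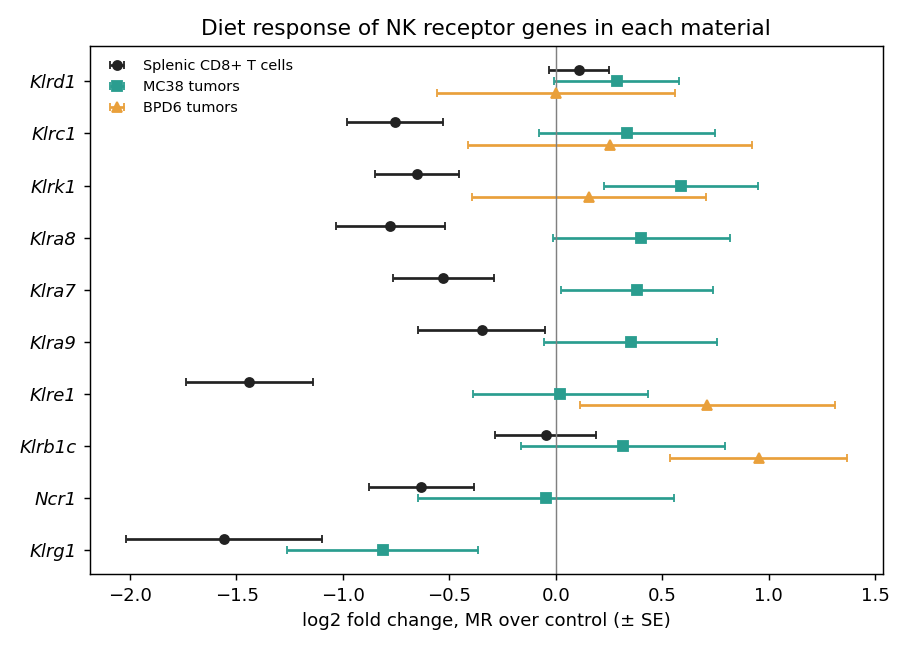
Log2 fold change of MR over control (x axis, ± SE from edgeR) for each gene in CD8+ T cells (circles), MC38 tumors (squares) and BPD6 tumors (triangles); genes without a symbol were not tested there. Klre1 in CD8+ T cells, at -1.44 ± 0.30, is the one point past the test, and 8 of 10 MC38 points and all 5 BPD6 points lie at or above zero.

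A promoter of Klre1 is shown as that of the gene that passed the test, beside one of Ncr1, whose product is used as a marker of NK cells. Each gene has 2 listed, and the one at the lower coordinate is shown. The Klre1 window was set by a RefSeq start and lies inside the GENCODE gene, which begins at 129577905. Capitals mark TGTGGT or its reverse complement ACCACA, the core letters bound by Runx factors, searched on both strands in 250 bases before to 50 after the listed start (RefSeq, GRCm38.p6, plus strand for both genes; Klre1 chr6:129577963-129578262, Ncr1 chr7:4337465-4337764):
Klre1: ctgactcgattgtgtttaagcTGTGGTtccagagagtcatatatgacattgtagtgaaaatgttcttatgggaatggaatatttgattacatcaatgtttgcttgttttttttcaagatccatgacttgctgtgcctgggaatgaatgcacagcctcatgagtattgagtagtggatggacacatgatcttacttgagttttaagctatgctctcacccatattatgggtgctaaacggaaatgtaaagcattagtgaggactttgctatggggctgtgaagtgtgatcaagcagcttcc
Ncr1: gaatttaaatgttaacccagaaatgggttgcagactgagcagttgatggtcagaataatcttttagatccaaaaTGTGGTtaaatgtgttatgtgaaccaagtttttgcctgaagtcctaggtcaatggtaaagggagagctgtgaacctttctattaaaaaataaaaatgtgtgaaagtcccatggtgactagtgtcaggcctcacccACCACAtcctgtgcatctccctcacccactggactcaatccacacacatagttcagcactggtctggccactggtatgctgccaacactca

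These letters were found in 16.8% of 32851 promoters, and in 6 of the 12 promoters listed for 8 member genes, those of 5 genes: Klre1, Ncr1, Klrb1c, Klrc1 and Klrk1. The T-box letters GGTGTGA, with TCACACC on the other strand, were found in 3.98% of promoters and in none of those 8 genes. Klrd1 and Klrg1 have no promoter entry.

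Other genes of the same families were counted from lists. Of 14 tested Klr genes outside the 10 members, 11 were lower with MR in CD8+ T cells, with a median log2 fold change of -0.48, and 1 passed the test. That gene was Klra10, a further Ly49 gene, measured at 16.4, 20.5 and 19.9 CPM in control cells and 6.33, 7.60 and 10.4 CPM in MR cells, a log2 fold change of -1.29 ± 0.23 (adjusted p = 0.0174 by edgeR, and 0.172 without MR replicate 1). Klra6, also of this family, had a like fold change of -1.29 ± 0.31 that missed the threshold (adjusted p = 0.0548 by edgeR). Klra10 shares 50-base windows with Klra8 and Klra9, so their counts are not fully separate.

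Of 14 tested adaptor and signalling genes, 10 were lower with MR, and Syk, the kinase that binds phosphorylated DAP12, fell. Syk was measured at 55.6, 37.8 and 81.1 CPM in control cells and 22.1, 31.5 and 32.8 CPM in MR CD8+ T cells, a log2 fold change of -1.09 ± 0.25 (adjusted p = 0.0402 by edgeR). Syk no longer passed without control replicate 1 (adjusted p = 0.0748 by edgeR), control replicate 3 (0.0828), MR replicate 1 (0.300) or MR replicate 3 (0.0788), nor when scaled by library totals only (0.0507). Syk is also abundant in B cells and myeloid cells. Cd247, the CD3 zeta gene, had a log2 fold change of 0.90 ± 0.24 (adjusted p = 0.0753 by edgeR), and Tyrobp one of -0.33 ± 0.28 (adjusted p = 0.583 by edgeR). Of 12 further NK and cytotoxic receptor genes, 6 were lower and 6 higher, and none passed. The lowest p belonged to Il2rb, the beta chain for interleukin-2 and interleukin-15 (-0.53 ± 0.15, adjusted p = 0.0981 by edgeR), and to Cd244a (-0.93 ± 0.28, adjusted p = 0.106 by edgeR).

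Of 16 genes of the NK and cytotoxic program, 13 were lower and none passed the test. Eomes and Tbx21, the T-box factors of NK and memory CD8+ T cells, came nearest. Eomes was measured at 105, 127 and 122 CPM in control cells and 56.8, 83.2 and 83.8 CPM in MR cells, with a log2 fold change of -0.73 ± 0.18 (adjusted p = 0.0545 by edgeR). Tbx21 was measured at 49.4, 56.0 and 54.5 CPM in control cells and 35.2, 39.9 and 36.2 CPM in MR cells, with a log2 fold change of -0.59 ± 0.15 (adjusted p = 0.0714 by edgeR). In both genes the groups did not overlap. Among the killing genes, the log2 fold changes were -0.75 ± 0.38 for Fasl, whose groups did not overlap, -0.53 ± 0.31 for Gzmb, -0.43 ± 0.33 for Gzma and -0.09 ± 0.18 for Prf1 (adjusted p = 0.321, 0.409, 0.535 and 0.828 by edgeR). Of 11 genes of effector and memory CD8+ T cells, 5 were lower and none passed, with Cx3cr1 at -1.23 ± 0.33 (adjusted p = 0.0775 by edgeR) and Cd44 at -0.63 ± 0.19 (0.101). Of 6 tested receptor ligand genes, 5 were lower and none passed, H2-D1 among them at -0.34 ± 0.20 and Cdh1 at -0.53 ± 0.53 (adjusted p = 0.401 and 0.639 by edgeR).

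Genes of other blood cells were read in the same libraries. Of 10 T cell genes, 4 were lower (median log2 fold change 0.03), and Cd8a and Cd3e had fold changes of -0.14 ± 0.18 and 0.41 ± 0.25 (adjusted p = 0.712 and 0.436 by edgeR). Cd8b1 and Lck, of lowest p in that list, had fold changes of 0.42 ± 0.18 and -0.41 ± 0.18 (adjusted p = 0.248 and 0.271 by edgeR). All 5 B cell genes were lower without passing the test (median -1.08), Pax5 among them, as were 5 of 6 dendritic cell genes (median -0.65), Itgax and Xcr1 among them. Summed B cell genes ranged from 46.1 to 240.5 CPM in control and from 62.1 to 98.2 CPM in MR cells, and summed dendritic cell genes from 36.4 to 62.0 and from 27.5 to 38.4 CPM. Of 8 macrophage genes 4 were lower, and Lyz2, the lysozyme gene of myeloid cells, fell (log2 fold change -1.30 ± 0.30, adjusted p = 0.0456 by edgeR). Lyz2 no longer passed without control replicate 1 (adjusted p = 0.112 by edgeR), control replicate 3 (0.0603), MR replicate 1 (0.187) or MR replicate 3 (0.0946), nor when scaled by library totals only (0.0576). Adgre1 had a log2 fold change of -0.64 ± 0.33 (adjusted p = 0.334 by edgeR). Control replicate 3 was the highest library for 7 of the 10 members and for 4 of 5 B cell, 4 of 6 dendritic cell and 5 of 8 macrophage genes. The same library was the lowest for 6 of the 10 T cell genes and the highest for 0 of them. The part of these cells in the values of the receptor genes was not tested. Fewer NK or memory T cells in a library and less receptor RNA per cell cannot be told apart in bulk RNA.

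Summed, the receptor genes were far lower in tumors than in CD8+ T cells. Their summed level was 460.5 to 603.9 CPM in control CD8+ T cells, 23.9 to 63.6 CPM in control MC38 tumors and 2.92 to 10.1 CPM in control BPD6 tumors, where 8 genes were summed. Klrg1 was not far lower in MC38 tumors. It ranged from 2.40 to 5.67 CPM in control MC38 tumors and from 4.33 to 6.61 CPM in control CD8+ T cells. With MR it ranged from 1.31 to 4.78 CPM and from 1.07 to 3.11 CPM. The tables were filtered separately by the authors, and Klrk1, Klrb1c, Klra8 and Ncr1 carry another RefSeq transcript in at least 1 table, so levels are set side by side without a test.

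Per kilobase of transcript, the order of the genes was read within each material. In control CD8+ T cells, Klrd1 led with 206 ± 14.8 CPM per kb (SD, n = 3), then Klra8 with 86.2 ± 28.2, both apart from the next gene by more than their SDs. Klrc1 (41.7 ± 8.16), Klre1, Klrk1, Klra7, Klrb1c and Klra9 (11.3 ± 5.37) followed with neighbors within their SDs, and Klrg1 was lowest and apart with 3.70 ± 0.857. Ncr1 could not be placed there, because its transcript was not matched to a length. In control MC38 tumors, Klrd1 (10.1 ± 2.90), Klrk1 (8.44 ± 4) and Klrc1 (7.46 ± 3.15) led within their SD (n = 4). Ncr1 came next at 3.76 ± 2.20 CPM per kb and was not apart from Klrc1 by more than their SDs. In control BPD6 tumors, Klrc1 (2.32 ± 1.22), Klrd1 (2.13 ± 1.11) and Klrk1 (2.07 ± 0.964) were together again, and the other 5 listed genes lay between 0.161 and 0.331 CPM per kb. Lengths are those of matched GENCODE transcripts and approximate. Klrk1 was divided by 3197 bases in CD8+ T cells and by 1019 and 1270 bases in MC38 and BPD6 tumors. With the tumor lengths it would stand at 73.0 ± 15.1 or 58.5 ± 12.1 CPM per kb in control CD8+ T cells (SD, n = 3), next after Klra8 and within its SD, so its place depends on the transcript listed.

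Set against the T cell genes of the same library, the mean level of each receptor gene was lowest in CD8+ T cells with either diet. The level of each gene was divided by the summed level of Cd3d, Cd3e and Cd3g, which encode the invariant chains of the T cell receptor complex. Ncr1 had a ratio of 0.0259 ± 0.00699 in control CD8+ T cells (SD, n = 3) and 0.993 ± 0.585 in control MC38 tumors (SD, n = 4). For Klrd1 the ratio was 0.219 ± 0.0108 and 1.73 ± 1.08. In all 10 genes the lowest control MC38 library was above the highest control CD8+ T cell library, as it was for 9 of 10 genes in the MR libraries, Klra8 being the exception. In BPD6 tumors this held for 7 of 8 genes in control, with Ncr1 the exception, and for 8 of 8 in MR, while the mean ratio was below that of MC38 tumors in all 8 genes with either diet. The summed Cd3 level was 3.27 to 7.64 CPM in control MC38 and 0.267 to 5.48 CPM in control BPD6 tumors, so these ratios rest on low counts. In control CD8+ T cells it was 740.1 to 919.5 CPM. Those libraries were made from T cells, so a low ratio there was set by the material. The ratios are given as a description and do not measure the NK cells of a tumor.

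**Figure D3:**
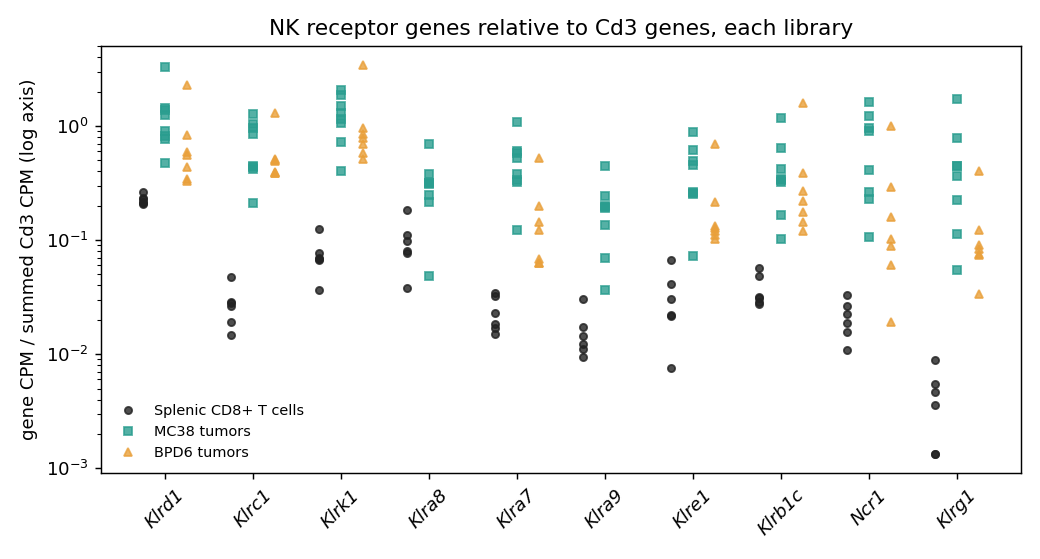
CPM of each gene divided by the summed CPM of Cd3d, Cd3e and Cd3g (log axis), 1 point per library with both diets together, by material. In the control libraries every gene has its MC38 ratios above its CD8+ T cell ratios, as for Ncr1 at 0.993 ± 0.585 against 0.0259 ± 0.00699. The CD8+ T cell libraries were made from T cells, so low ratios there were set by the material.

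In MC38 tumors, the 10 genes did not part by diet. The groups overlapped in every member, and none passed edgeR's test or had an unadjusted p under 0.05. Of all genes, 9.18% had groups that did not overlap. The edgeR test called 0% of 14034 genes, with 1981 (14.1%) at an unadjusted p under 0.05, and DESeq2 called 406 genes (3.06%) and no member. The median log2 fold change of the members was 0.32, beside 0.02 over all genes, and 2 of 10 lay below zero, as 46.4% of all genes did, or 5 of 10 without MR replicate 2 and 3 of 10 scaled by library totals only.

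Among the activating receptors, Klrk1 was measured at 8.42, 6.80, 4.85 and 14.3 CPM in control and 6.06, 17.5, 10.8 and 16.1 CPM in MR MC38 tumors, a log2 fold change of 0.59 ± 0.36 (adjusted p = 0.465 by edgeR). Ncr1 was measured at 5.79, 5.26, 1.54 and 9.40 CPM in control and 1.52, 6.30, 2.85 and 10.3 CPM in MR tumors. Its libraries spread about as widely in each group, and the log2 fold change was -0.05 ± 0.60 (adjusted p = 0.975 by edgeR). Klra8 ranged from 1.44 to 2.44 CPM in control and from 1.28 to 4.85 CPM in MR tumors, and Klrb1c from 1.11 to 4.91 and from 1.93 to 6.44 CPM.

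For the CD94 pair, Klrd1 was measured at 8.95, 10.7, 5.41 and 11.05 CPM in control and 5.25, 11.8, 12.7 and 13.4 CPM in MR MC38 tumors (log2 fold change 0.29 ± 0.29, adjusted p = 0.659 by edgeR). Klrc1 was measured at 5.43, 4.16, 2.89 and 7.93 CPM in control and 2.42, 6.76, 5.68 and 10.5 CPM in MR tumors (0.34 ± 0.41, adjusted p = 0.716 by edgeR). In both genes 1 MR library, replicate 1, was the lowest of all 8 libraries and the other MR libraries were at or above the control median. Klrg1 was measured at 5.05, 5.67, 2.40 and 3.44 CPM in control and 1.31, 1.74, 1.47 and 4.78 CPM in MR tumors. Of its MR libraries, 3 were below all controls and MR replicate 4 was not, with a log2 fold change of -0.81 ± 0.45 (adjusted p = 0.423 by edgeR). Klre1, the gene that fell in CD8+ T cells, was measured at 3.18, 2.89, 1.69 and 4.70 CPM in control and 1.5002, 4.02, 1.93 and 4.93 CPM in MR tumors, a log2 fold change of 0.02 ± 0.41 (adjusted p = 0.983 by edgeR). Klra7 and Klra9 had log2 fold changes of 0.38 ± 0.36 and 0.35 ± 0.41 (adjusted p = 0.626 and 0.699 by edgeR).

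Markers of other cells had mostly positive fold changes in MC38 tumors, and none passed the test. All 10 T cell genes (median log2 fold change 1.165), all 8 macrophage genes (0.84) and all 6 dendritic cell genes (0.78) were higher with MR, Cd8a by 1.02 ± 0.47 and Cd3e by 1.18 ± 0.55 (adjusted p = 0.365 and 0.369 by edgeR). Summed T cell genes ranged from 20.7 to 37.6 CPM in control and from 16.6 to 88.8 CPM in MR tumors, and summed macrophage genes from 523.8 to 1071 and from 648.9 to 1932 CPM. MR replicate 3 stood apart: it was the highest library for 9 of 10 T cell genes and held Ms4a1, the CD20 gene of B cells, at 32.1 CPM, where the other MR libraries were at 0 and the control libraries at 0.117 to 0.492 CPM. It was the highest library for 0 of the 10 receptor genes, and their median log2 fold change stayed between 0.09 and 0.50 with any 1 library left out. The part of these cells in the receptor values was not tested. Of the fixed partners, Tyrobp had a log2 fold change of 0.88 ± 0.23 and Hcst 0.85 ± 0.53, Tbx21 0.48 ± 0.35, Gzmb -0.26 ± 0.36 and Prf1 -0.70 ± 0.44 (adjusted p = 0.255, 0.468, 0.534, 0.747 and 0.472 by edgeR). H2-T23 had one of 0.68 ± 0.24 (adjusted p = 0.297 by edgeR). No gene of any list passed the test in MC38 tumors: higher with MR were 8 of 11 other Klr genes, 12 of 15 adaptor and signalling genes, 10 of 14 other receptors, 6 of 10 ligands, 8 of 16 NK program genes and all 11 effector and memory genes.

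**Figure D4:**
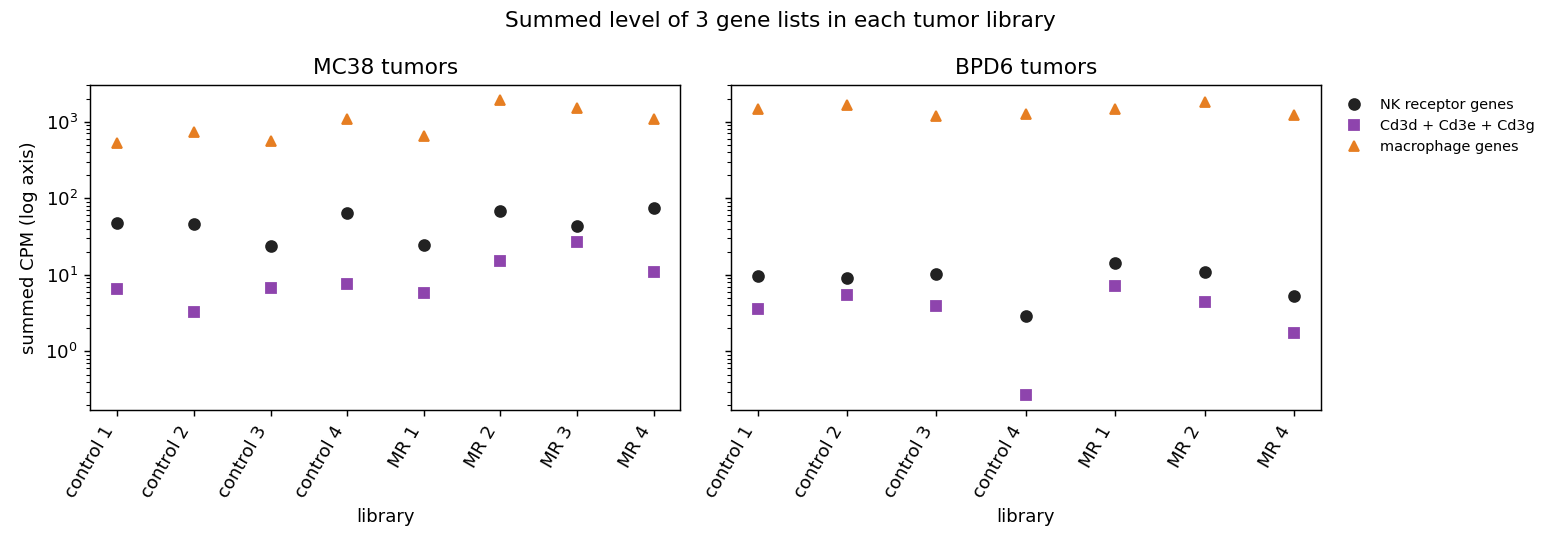
Summed CPM (log axis) of the 10 receptor genes (8 in BPD6), of Cd3d, Cd3e and Cd3g, and of 8 macrophage genes in each tumor library. MC38 MR replicate 3 has the highest Cd3 sum, 26.6 CPM, with a receptor sum inside the range of the other libraries, and BPD6 control replicate 4 is lowest for both, at 0.267 and 2.92 CPM.

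In BPD6 tumors the receptor genes were near the limit of detection, and 5 of the 8 listed genes passed the filter on low counts: Klrd1, Klrc1, Klrk1, Klre1 and Klrb1c. BPD6 column names carry another prefix than the labels, and MR columns are numbered 1, 2 and 4, so these were tied to the diet group only and are named by column number. None of the 5 passed edgeR's test, which called 0% of 13978 genes (258, or 1.85%, at an unadjusted p under 0.05, none of them a member), and DESeq2 called 1 gene (0.00667%) and no member. All 5 fold changes were above zero, Klrd1 by 0.001 and below zero when scaled by library totals only or with DESeq2, where 51.6% of all genes lay below it (median 0.25, beside -0.007 over all genes), but the median ran from -0.08 without control replicate 4 to 0.90 without MR replicate 4.

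Klrk1 was measured at 3.05, 2.79, 3.78 and 0.910 CPM in control and 4.08, 3.48 and 1.20 CPM in MR BPD6 tumors. Klrd1 was measured at 2.998, 1.79, 2.22 and 0.615 CPM in control and 3.08, 1.52 and 1.03 CPM in MR tumors. Klrc1 was measured at 1.80, 2.16, 2.03 and 0.348 CPM in control and 2.76, 2.17 and 0.672 CPM in MR tumors. In each of these genes control replicate 4 was the lowest library and the groups overlapped, with log2 fold changes of 0.16 ± 0.55, 0.001 ± 0.56 and 0.25 ± 0.67 (adjusted p of 1 by edgeR after rounding for each). Klrb1c was measured at 0.436, 0.791, 0.703 and 0.428 CPM in control and 1.54, 1.20 and 0.672 CPM in MR tumors, a log2 fold change of 0.95 ± 0.41 with an unadjusted edgeR p of 0.0509. Klre1 had one of 0.71 ± 0.60.

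Of the 3 genes that did not pass the filter, Klra7 and Klrg1 had groups that overlapped. Ncr1 was measured at 0.218, 0.105, 0.351 and 0.268 CPM in control and 0.721, 0.707 and 0.504 CPM in MR BPD6 tumors, which are 2 to 6.5 and 10.5 to 14.5 counts. Its MR values were all above its control values, as for 1.42% of the genes tested, and it was not among them. Tested without the filter, Ncr1 had a log2 fold change of 1.44 ± 0.51 (unadjusted p = 0.0232, adjusted p = 0.998 by edgeR), and DESeq2 gave 1.47 ± 0.78 (unadjusted p = 0.0605). Klra7 and Klrg1 did not pass in either fit.

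Control replicate 4 was the lowest BPD6 library for 7 of 8 receptor genes and for 7 of 10 T cell genes, and MR replicate 1 the highest for 5 of 8 and 6 of 10. Control replicate 4 was the lowest for 1 of 8 macrophage genes, with macrophage sums of 1193 to 1661 CPM in control and 1232 to 1821 CPM in MR tumors. Cdh1, the E-cadherin ligand of KLRG1, stood at 10.4 CPM in control replicate 3 and 17.7 CPM in MR replicate 1 and at 0.528 to 1.58 CPM in the others. Cd3e and Cd8a had log2 fold changes of 0.27 ± 0.77 and 0.45 ± 0.79, and H2-T23 of 0.68 ± 0.34 (adjusted p of 1 by edgeR after rounding for each). No list gene passed the test in BPD6 tumors either: higher with MR were 4 of 5 other Klr genes, 8 of 12 adaptor and signalling genes, 6 of 10 other receptors, 6 of 10 ligands, 11 of 13 NK program genes, 8 of 10 effector and memory genes and 9 of 10 T cell genes.

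Whether the tumor models differed in their response was tested with a model by diet interaction in 14257 genes. DESeq2 called 7 genes (0.0564%) and none of the 4 members it gave an adjusted p. With edgeR none of 8 tested members passed, and 0% of all genes did (742, or 5.20%, at an unadjusted p under 0.05, none of them a member). Ncr1 and Klrg1 had the largest differences, 1.49 ± 0.87 and 1.43 ± 0.84 on the log2 scale, BPD6 minus MC38 (adjusted p = 0.849 for both by edgeR). Neither gene passed the filter within BPD6 tumors, where they had 2 to 14.5 and 2 to 10.5 counts a library. Their differences therefore rest on few counts and are not read further. The response of CD8+ T cells was not tested against that of tumors.

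The genes whose profiles over the 21 libraries lay nearest to 3 of the receptors were found by the root mean square difference of centred log2(CPM + 1) values, over 11619 genes. Nearest to Klrd1 were Nkg7 (0.288), Klf2 (0.326) and Gimap9 (0.368), where the median gene stood at 2.64. Nearest to Klrk1 were Slfn2 (0.324), Ly9 (0.365) and Klre1 (0.384), with a median of 1.86, and nearest to Ncr1 were Pglyrp1 (0.365), Klra7 (0.385) and Gzma (0.416), with a median of 1.71. The distance includes the gap between T cells and tumors, as in Nkg7 with mean levels of 233, 11.3 and 2.82 CPM in CD8+ T cells, MC38 and BPD6 tumors, and it is given as a description.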

How the data were processed

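Poly-T beads selected the mRNA, and random hexamers primed cDNA from its fragments, per the labels' protocols, so longer transcripts give more reads. The authors deposited 3 tables of estimated counts per gene and library, without normalization, in steps of 0.5, with 1 RefSeq transcript a gene; the submitters' processing notes name GRCm38 (mm10), with aligner and counter not given in the sources used here. Every listed gene reaches a count of 6 in some library. The tables also hold the authors' deposited log2 fold changes and p-values, per the file headers. A further 21 per-library columns were not used.

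Estimated counts were rounded and tested within each table with edgeR 4.0.16 in R 4.3.3 (filterByExpr, TMM, quasi-likelihood test, Benjamini-Hochberg over all genes), and SE is the log2 fold change over the root of F. Alternatives were DESeq2 1.42.0, other scalings, no filter, a replicate block and leaving out each library. The code was tested on simulated data. The members, lists and tests were chosen with earlier results of these data known. Named genes were the members, each list gene past a test, the 2 of lowest p in CD8+ T cells per list, and 11 fixed genes; Klri2, Ms4a1 and Fasl were named after their values were seen. Of the genes this rule names, 1 is not reported here.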

Additional observations from a re-analysis of the deposited data

Results flagged for a closer look

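Among 28 groups of 4 libraries in which a receptor gene could be screened, 2 held a library far from the rest by a Dixon test, which flags about 1 group in 20 by chance. Klra9 stood at 0.461 CPM in MC38 control replicate 3, where the other control libraries were between 1.46 and 1.56 CPM. Klrg1 stood at 4.78 CPM in MC38 MR replicate 4, where the other MR libraries were between 1.31 and 1.74 CPM.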

How the results depend on the processing

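Of 158 member fold changes recomputed under other settings that kept every library, 152 kept their direction and their side of the threshold. Scaling by library totals only turned Klrb1c in CD8+ T cells (0.02), Klre1 in MC38 (-0.01) and Klrd1 in BPD6 (-0.02), and DESeq2 turned Klrd1 in BPD6 (-0.0033); all lay near zero. DESeq2 called 559 genes in CD8+ T cells with 2 members, 406 in MC38, 1 in BPD6 and 7 for the interaction, with no member called in the last 3 (4 members had an adjusted p for the interaction), and gave a BPD6 member median of 0.68, against 0.67 without a filter. Both of these BPD6 medians are over 8 genes, with Klra7, Klrg1 and Ncr1 included. The main median of 0.25 is over the 5 genes that passed the filter. The cause of the differences in genes called was not tested. With TMM scaling the MR level of Klrd1 in CD8+ T cells was 204.0 CPM.

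Control and MR libraries of the same number had correlations of deviations of -0.179 to 0.0416 in CD8+ T cells and -0.284 to 0.383 in MC38. With so few libraries these values cannot settle whether samples were paired. With a replicate block, 74 genes were called in CD8+ T cells, Klre1 among them (-1.50, edgeR adjusted p = 0.0300), and Klre1 in MC38 was -0.03. Klra10 passed with the block, and Syk and Lyz2 did not (edgeR adjusted p = 0.0545 and 0.078). No paired analysis was possible in BPD6 because the MR columns carry other numbers.

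With 1 library left out, genes called in CD8+ T cells ran from 7 (without MR replicate 1) to 290 (without MR replicate 2), with 36 without control replicate 1, members called from 0 to 5, and the BPD6 member median from -0.08 to 0.90. The ranges that crossed zero were Klra9 -0.55 to 0.14, Klrb1c -0.35 to 0.23 in CD8+ T cells, and Klre1 -0.27 to 0.27, Klra8 -0.01 to 0.63, Klrb1c -0.10 to 0.63, Ncr1 -0.58 to 0.32 in MC38, and Klrc1 -0.17 to 0.65, Klrd1 -0.57 to 0.30, Klrk1 -0.19 to 0.52 in BPD6, and Klra7 -0.25 to 0.61, Klrc1 -0.50 to 0.30, Klrd1 -0.84 to 0.0028 for the interaction.

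Low counts limit the BPD6 values: Klra7, Klrg1 and Ncr1 did not pass the edgeR filter there.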

Other observations

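Klra4, a Ly49 gene outside the 10 members, was noticed after the values were seen, because it went the other way between materials. Klra4 encodes Ly49D, an activating receptor that signals through DAP12. It was measured at 12.1, 9.33 and 22.5 CPM in control and 5.96, 11.2 and 8.62 CPM in MR CD8+ T cells. In MC38 tumors it stood at 36.7, 28.6, 31.6 and 31.4 CPM in control and 31.7, 32.4, 40.1 and 41.3 CPM in MR, and in BPD6 tumors at 89.0, 45.4, 67.0 and 65.8 CPM in control and 64.0, 58.2 and 80.4 CPM in MR. It was above every one of the receptor genes in 8 of 8 MC38 and 7 of 7 BPD6 libraries. Its log2 fold change with MR was -0.84 ± 0.33 in CD8+ T cells, 0.23 ± 0.12 in MC38 and 0.03 ± 0.23 in BPD6 tumors, none past edgeR's test (adjusted p = 0.204, 0.408 and 1 after rounding). Klra2, of the same family, stood likewise higher in tumors, at 12.6 ± 3.53 CPM in control MC38 (SD, n = 4) and 15.7 ± 4.47 CPM in control BPD6 (SD, n = 4) against 4.64 ± 1.91 CPM in control CD8+ T cells (SD, n = 3). Klra2 carries another RefSeq transcript in MC38 tumors than in the other materials. Shared windows were searched for the 10 members only, so the part of shared reads in the Klra4 and Klra2 levels was not tested.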
